A study of Mus musculus with 12 samples.

Results

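PEA3 ETS factors and ERK feedback genes were followed in cultured mouse airway smooth muscle cells (SMCs) and lung PDGFR-β+ cells after silencing of Klf4. The 10 genes were the 3 PEA3 factors Etv1, Etv4 and Etv5, the 3 phosphatases Dusp4, Dusp5 and Dusp6, the 3 Sprouty genes Spry1, Spry2 and Spry4, and Spred2. Each was 1 row, matched by gene symbol, of the 52636 rows in both expression tables. They were chosen from earlier siKlf4-against-Scr values of these same libraries, so their changes with siKlf4 are given as a description, and the counts of members called are not a test of the group.

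The 12 bulk RNA-seq libraries formed 4 groups of 3: SMCs with scrambled control RNA (Scr), SMCs with siRNA against Klf4 (siKlf4), PDGFR-β+ cells with Scr and PDGFR-β+ cells with siKlf4. The SMCs are 1 commercial line of C57BL/6 wild-type mouse cells, which the titles call airway and the source field calls tracheal, with no age given. The PDGFR-β+ cells are labelled as coming from the lungs of C57BL/6 wild-type mice of 12 weeks, whereas the study describes them as ZsGreen-positive cells sorted from tamoxifen-treated Pdgfrb-CreERT2, ROSA26R(Zs/+) mice, in which the Pdgfrb promoter drives the recombinase. By the study's methods, all cells were starved of serum for 2 h, exposed to 50 nM RNA for 6 h and then cultured for 72 h in a medium that contained EGF and FGF, so every group had ligands of receptor tyrosine kinases. The labels give no separate cultures or animals for the libraries of a group, although the study speaks of independent experiments, so the spread between libraries may be partly technical. Expression is in TPM, a level that is corrected for transcript length and sums to 1000000 in each library. The study gives a target for the sequencing depth, but the depth that each library reached is unknown. Between 20590 and 21780 genes were above 0 in a library.

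Klf4 itself measured 89.6, 96.3 and 95.0 TPM in the Scr libraries of SMCs and 26.5, 16.3 and 18.8 TPM with siKlf4. In PDGFR-β+ cells it measured 144, 146 and 134 TPM under Scr against 12.3, 13.8 and 12.8 TPM under siKlf4. Klf4 was thus left at 21.9% of its Scr mean in SMCs and at 9.16% in PDGFR-β+ cells, a fall past the threshold in both (limma, Benjamini-Hochberg adjusted p = 0.000752 and 3.32e-06). Here and below, the values of a group in SMCs are in the order of the library without a replicate number, replicate 2 and replicate 3, and those in PDGFR-β+ cells in the order of replicates 1, 2 and 3. The cells were also checked against markers. Acta2, the smooth muscle actin gene, averaged 1373 TPM in the Scr-treated SMCs and 4369 TPM in the Scr-treated PDGFR-β+ cells, Myocd, which encodes a coactivator of the smooth muscle programme, averaged 0.14 and 0.027 TPM, and Pdgfrb averaged 214 and 447 TPM, so actin and Pdgfrb were both present in both cultures. Markers moved with the groups: the summed level of 8 smooth muscle genes was 1495 to 2284 TPM with Scr and 3411 to 4174 TPM with siKlf4 in SMCs, and 5551 to 6408 TPM and 4708 to 5003 TPM in PDGFR-β+ cells, and that of 9 fibroblast and mural genes was 5122 to 5355 TPM and 3880 to 4053 TPM in SMCs. The smooth muscle sum is mostly Acta2 and Tagln. By gene, 6 of 7 tested rose in SMCs, and in PDGFR-β+ cells 3 rose (Myh11, Smtn and Lmod1) and 3 fell (Acta2, Tagln and Des). The fibroblast and mural sums of PDGFR-β+ cells overlapped, at 4198 to 5173 TPM with Scr and 3535 to 4827 TPM with siKlf4. Of those 9 genes 0 rose and 3 fell there, among them Cspg4 from 26.9 to 6.00 TPM. The 6 macrophage and leukocyte genes summed to 4.68 to 7.19 TPM with Scr and 4.44 to 6.51 TPM with siKlf4 in SMCs, and to 28.7 to 29.9 TPM and 18.7 to 22.8 TPM in PDGFR-β+ cells, where Lyz2 and Csf1r fell with siKlf4 (log2 fold changes -0.71 and -0.87, limma adjusted p = 0.00538 and 0.0138), Cd68 averaged 7.56 TPM with Scr and 8.77 TPM with siKlf4, and Ptprc, Adgre1 and Itgam averaged under 1 TPM with either. The 5 endothelial genes summed to 1.34 to 2.65 TPM with Scr and 3.54 to 4.02 TPM with siKlf4 in SMCs. Kdr rose there, from 0.66 to 2.88 TPM. In PDGFR-β+ cells the sums were 15.3 to 18.4 TPM and 14.1 to 16.2 TPM, and Tek rose from 1.33 to 2.55 TPM. The 6 epithelial genes summed to at most 1.10 TPM in any library. The part of these shifts in the values below was not tested, and in bulk RNA fewer cells of a type and less RNA per cell cannot be told apart.

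Receptor tyrosine kinases such as the FGF and EGF receptors signal through RAS, RAF and MEK to the kinase ERK. Active ERK raises the transcription of ETV1, ETV4 and ETV5, ETS-family transcription factors that carry growth factor signals into gene expression in branching organs such as the lung, and at the same time raises the transcription of its own inhibitors. DUSP6 removes phosphate from ERK in the cytoplasm and DUSP4 and DUSP5 do so in the nucleus, while Sprouty and SPRED proteins act upstream on RAS and RAF. Because these genes answer to ERK, their transcript levels are often read together as a measure of pathway output, and Capicua, a repressor that ERK inactivates, holds several of them down.

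For 7 of the 10 genes a promoter window from RefSeq (GRCm38.p6) was at hand, in 9 windows of 300 bases that run from 250 bases before a transcription start to 50 bases after it. The 3 windows that hold the letters TGAATG, a form of the core that Capicua binds, are shown. Capicua was chosen because it is the known repressor of several of these genes, and windows with other forms of the core were not sought. The capitals mark TGAATG or, where it lies on the other strand, its reverse complement CATTCA. The Dusp6 window is chr10:99262981-99263280 on the forward strand, the Dusp5 window is chr19:53528895-53529194 on the forward strand, and the Etv5 window is chr16:22438319-22438618 on the reverse strand, at the second of 2 Etv5 starts. In the GENCODE annotation of GRCm38 the last 50 bases of the Dusp6 window and the last 86 of the Dusp5 window are in the first exon of their genes (chr10:99263231-99267489 and chr19:53529109-53542431), whereas the Etv5 window lies in the gene (chr16:22381309-22439719) with 0 bases in an exon.
Dusp6: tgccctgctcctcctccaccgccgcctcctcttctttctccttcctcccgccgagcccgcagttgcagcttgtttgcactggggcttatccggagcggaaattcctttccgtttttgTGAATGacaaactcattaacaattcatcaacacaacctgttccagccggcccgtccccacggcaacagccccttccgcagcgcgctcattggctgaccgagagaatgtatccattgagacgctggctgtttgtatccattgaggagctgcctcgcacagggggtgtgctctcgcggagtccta
Dusp5: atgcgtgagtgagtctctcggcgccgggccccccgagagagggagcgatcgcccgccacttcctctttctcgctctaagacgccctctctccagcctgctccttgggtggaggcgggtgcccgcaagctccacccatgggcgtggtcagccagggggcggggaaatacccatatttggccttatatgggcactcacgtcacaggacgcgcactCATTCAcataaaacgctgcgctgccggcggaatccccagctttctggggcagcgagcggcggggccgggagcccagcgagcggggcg
Etv5: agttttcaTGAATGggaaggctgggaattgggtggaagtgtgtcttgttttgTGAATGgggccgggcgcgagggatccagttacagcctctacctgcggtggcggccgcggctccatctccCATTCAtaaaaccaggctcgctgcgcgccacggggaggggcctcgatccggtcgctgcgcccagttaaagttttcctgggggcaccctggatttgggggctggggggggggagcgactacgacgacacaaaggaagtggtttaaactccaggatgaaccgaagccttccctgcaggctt
The Dusp6 match begins 133 bases before the start and the Dusp5 match 37 bases before it. The Etv5 window holds 3 matches, which begin 242, 198 and 129 bases before the start. Over all 32851 RefSeq mouse windows, 12.7% hold TGAATG on either strand, and this short form was searched after the sequences had been seen. The longer form TGAATGNA, which contains it, was in none of the 9 windows and in 3.82% of all windows. Only forms that begin with TGAATG were searched, so the capitals and these counts leave out any other form of the Capicua sequence. An ETS motif, CCGGAAGT, was in none of the 9 and in 3.89% of all. A KLF motif, CCACNCCC, was in the Dusp5 window only, where it begins 113 bases before the start, against 17.6% of all windows. A match says only that the letters are there, and the absence of a match says only that they are not in this window.

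Before knockdown, the PEA3 factors and feedback genes covered a wide range of levels and were not all alike in the 2 cell types. In Scr-treated SMCs the order by mean was Spry2 at 162 ± 17.4 TPM (SD, n = 3), Spred2 at 51.2 ± 1.03 TPM and Etv5 at 24.8 ± 2.27 TPM, each apart from the next. Dusp6 at 14.9 TPM and Dusp4 at 12.6 TPM overlapped each other and stood above the rest. Spry1, Dusp5, Etv4, Etv1 and Spry4 followed, from 6.43 down to 4.86 TPM, with every neighbour overlapping. In Scr-treated PDGFR-β+ cells Spry2 at 88.9 ± 7.01 TPM, Spred2 at 77.3 ± 8.12 TPM and Dusp4 at 66.4 ± 18.8 TPM led, and neighbours among them overlapped. Etv5 at 27.7 ± 2.54 TPM stood apart, Dusp6, Dusp5, Spry1 and Etv4 overlapped as neighbours between 19.1 and 12.0 TPM, and Spry4 at 7.38 TPM and Etv1 at 3.23 TPM came last, each apart from its neighbour.

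Set side by side, the Scr libraries of the 2 cell types did not overlap for any of these genes except Etv5 and Dusp6. The share of all genes that separate in this way was not computed, so whether this sets the 10 genes apart is not known. The ratio of the Scr means was 5.29 for Dusp4, 2.74 for Dusp5, 2.18 for Spry1, 1.99 for Etv4, 1.52 for Spry4 and 1.51 for Spred2, all with the higher level in PDGFR-β+ cells. Spry2 was 1.83 times and Etv1 1.56 times as high in SMCs, and Etv5 and Dusp6 overlapped. With siKlf4 the levels of Etv1, Etv4, Dusp5 and Dusp6 overlapped between the cell types, Etv5, Dusp4, Spry1 and Spry4 were higher in PDGFR-β+ cells, and Spry2 and Spred2 were higher in SMCs. The cell types came in separate tables and differ in source and handling, which cannot be told apart from cell type, so these levels were not tested.

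**Figure D1:**
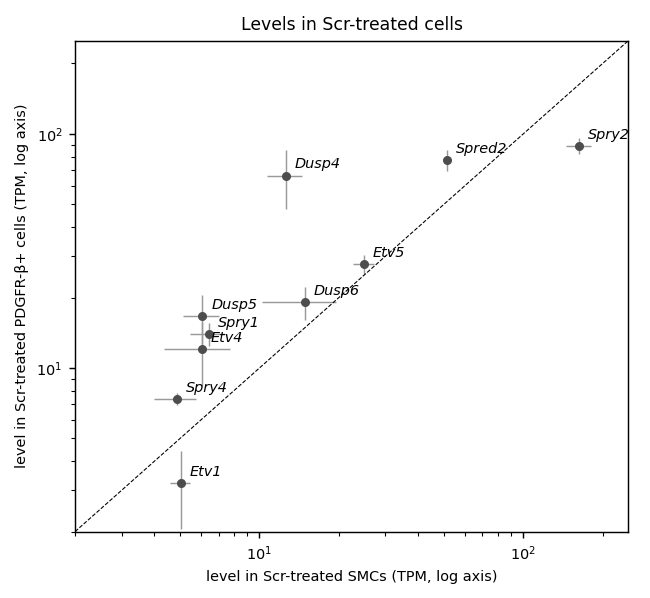
Mean level of each gene in Scr-treated SMCs (x axis, TPM, log axis) and Scr-treated PDGFR-β+ cells (y axis, TPM, log axis), with bars for the SD of 3 libraries and a dashed line of equal levels. Dusp4 lies farthest above the line, at 12.6 and 66.4 TPM, and Spry2 and Etv1 lie below it.

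After knockdown, PEA3 factors and feedback genes were mostly higher in both cell types, but 3 feedback genes parted from the PEA3 factors in PDGFR-β+ cells. In SMCs 8 of the 10 genes passed the threshold of an adjusted p of 0.05 as higher with siKlf4 and 0 as lower, while 15.6% and 12.9% of the 13709 genes tested did so. In PDGFR-β+ cells 7 of the 10 passed as higher and 1 as lower, against 25.3% and 15.3% of the 13694 genes tested. All 10 genes had a mean of at least 1 TPM in each cell type and were tested in both. The median log2 fold change of the 10 genes was 1.00 in SMCs and 0.77 in PDGFR-β+ cells, and over all genes tested it was 0.017 and 0.097. A different scaling of the PDGFR-β+ libraries, by median ratios, moved that all-gene median to -0.0036 and the split of all calls from 3461 higher and 2098 lower to 2634 higher and 2978 lower.

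**Figure D2:**
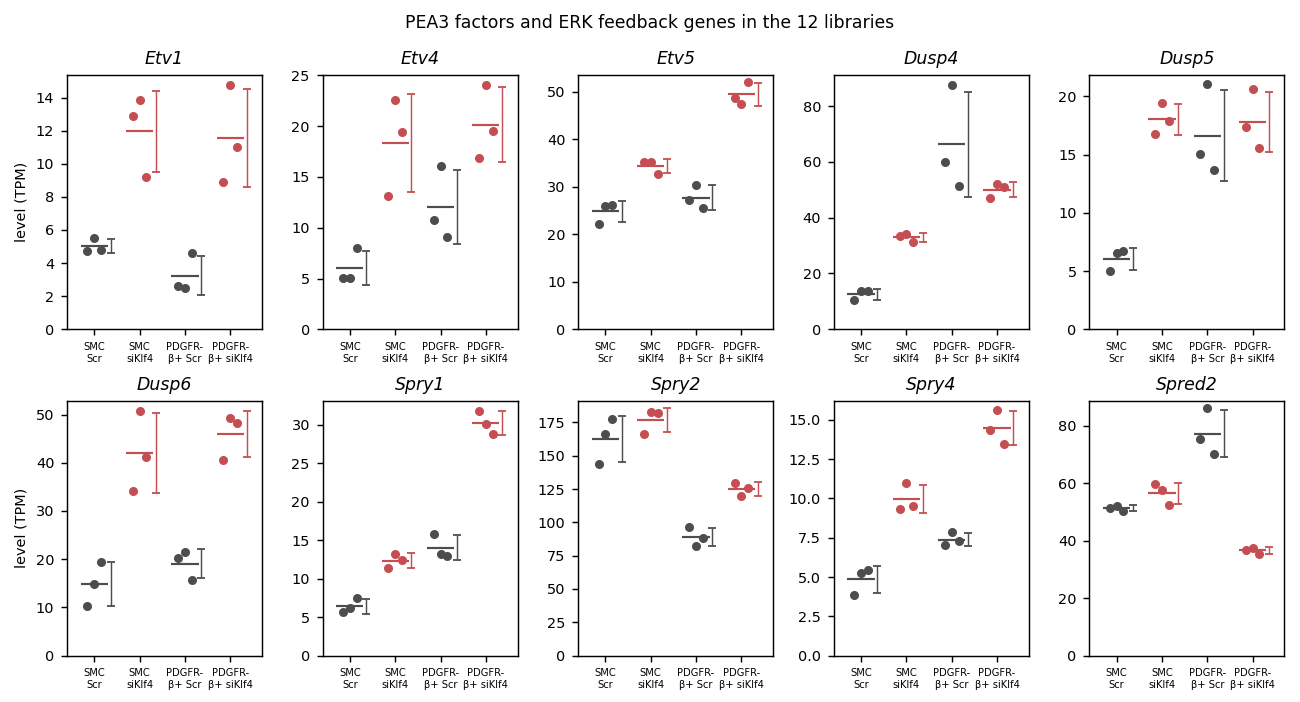
Level of each of the 10 genes (y axis, TPM, from 0) in the 12 libraries, with Scr in grey and siKlf4 in red, a horizontal line at the mean and a bar for the SD of 3 libraries. Etv1, Etv4, Etv5, Dusp6, Spry1 and Spry4 have every siKlf4 library above every Scr library in both cell types, whereas Spred2 is lower with siKlf4 in PDGFR-β+ cells.

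Etv1 was among the lowest of the 10 genes with Scr and had the largest fold rise in PDGFR-β+ cells. In SMCs it measured 4.75, 5.54 and 4.81 TPM under Scr against 12.9, 13.8 and 9.18 TPM under siKlf4. The corresponding values in PDGFR-β+ cells were 2.59, 2.52 and 4.58 TPM and 8.87, 14.8 and 11.0 TPM. The groups did not overlap in either cell type, although siKlf4 replicate 3 was the lowest in SMCs and Scr replicate 3 the highest Scr library in PDGFR-β+ cells. The means differed 2.38-fold and 3.58-fold, and the log2 fold changes on log2(TPM + 1) were 1.09 (SE 0.16) and 1.58 (SE 0.23). At these low levels the added 1 TPM makes the log2 value smaller than the ratio of the means.

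Etv4, which in mouse lung development acts beside Etv5 downstream of FGF signals, rose in both cell types, although the call in PDGFR-β+ cells rested on single libraries. Its levels in SMCs were 5.10, 5.05 and 7.98 TPM under Scr against 13.1, 22.6 and 19.4 TPM under siKlf4, a 3.04-fold difference of the means and a log2 fold change of 1.45 (SE 0.23). The PDGFR-β+ libraries held 10.8, 16.1 and 9.14 TPM under Scr against 16.8, 24.1 and 19.5 TPM under siKlf4, a 1.68-fold difference and a log2 fold change of 0.72 (SE 0.21). Here the groups only just failed to overlap, since Scr replicate 2 at 16.1 TPM lay close to siKlf4 replicate 1 at 16.8 TPM. The rise in PDGFR-β+ cells was no longer past the threshold without Scr replicate 1 (log2 fold change 0.67), Scr replicate 3 (0.56), siKlf4 replicate 2 (0.59) or siKlf4 replicate 3 (0.74), nor under median-ratio scaling (0.62), quantile normalization (0.61) or no filter on low values (0.72). From DESeq2, the study reports no significant rise of Etv4 in PDGFR-β+ cells and describes only a trend to a higher level. Its comparison of transcription factors asked for a minimum fold change beside an adjusted p, whereas the call here uses the adjusted p alone.

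Etv5 was the most abundant PEA3 transcript in every library and had the smallest fold rise of the PEA3 factors in SMCs. Its Scr levels were 22.2, 26.0 and 26.2 TPM in SMCs and 27.3, 30.5 and 25.5 TPM in PDGFR-β+ cells. With siKlf4 they were 35.2, 35.2 and 32.7 TPM and 48.8, 47.5 and 52.1 TPM. All siKlf4 libraries were above all Scr libraries of the same cell type, by 1.39-fold and 1.78-fold in the means, with log2 fold changes of 0.46 (SE 0.091) and 0.82 (SE 0.089).

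The summed level of Etv1, Etv4 and Etv5 was 32.0 to 39.0 TPM with Scr and 61.2 to 71.6 TPM with siKlf4 in SMCs, and 39.2 to 49.1 TPM and 74.5 to 86.3 TPM in PDGFR-β+ cells. Etv5 made up 67.2% to 71.1% of this sum with Scr in SMCs and 49.2% to 57.6% with siKlf4. In PDGFR-β+ cells its share was 62.0% to 67.1% with Scr and 55.0% to 65.5% with siKlf4, and these ranges overlapped. In SMCs the share of Etv5 was thus lower in every siKlf4 library than in any Scr library, that of Etv4 was higher (13.8% to 20.5% with Scr and 21.4% to 31.7% with siKlf4), and that of Etv1 overlapped.

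Of the phosphatases, Dusp6 rose in both cell types, whereas Dusp4 and Dusp5 rose in SMCs and did not pass the threshold in PDGFR-β+ cells. Dusp6 measured 10.2, 14.9 and 19.5 TPM under Scr against 34.2, 50.7 and 41.3 TPM under siKlf4 in SMCs, and 20.2, 21.4 and 15.7 TPM and 40.6, 49.3 and 48.2 TPM in PDGFR-β+ cells. The lowest siKlf4 library was well above the highest Scr library in each. The means differed 2.83-fold and 2.41-fold, with log2 fold changes of 1.46 (SE 0.23) and 1.23 (SE 0.13).

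Dusp4 went from 10.3, 13.6 and 13.8 TPM with Scr to 33.5, 34.0 and 31.2 TPM with siKlf4 in SMCs, which is 2.62-fold in the means and 1.33 (SE 0.12) as a log2 fold change. In PDGFR-β+ cells it was already high with Scr, at 60.1, 87.5 and 51.5 TPM, and measured 47.0, 52.0 and 51.0 TPM with siKlf4. These groups overlapped, and the log2 fold change was -0.37 (SE 0.18). Scr replicate 2 was far above the other Scr libraries, and without Scr replicate 3, the lowest of them, the value was -0.53 and past the threshold as a fall. The siKlf4-treated SMCs, at most 34.0 TPM, were below every PDGFR-β+ library.

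Dusp5 showed the same contrast between the cell types. SMC libraries held 4.99, 6.52 and 6.72 TPM under Scr against 16.8, 19.4 and 17.9 TPM under siKlf4, a 2.97-fold difference and a log2 fold change of 1.43 (SE 0.13). PDGFR-β+ libraries held 15.1, 21.1 and 13.7 TPM under Scr against 17.3, 20.6 and 15.5 TPM under siKlf4. There was overlap between the groups and a log2 fold change of 0.11 (SE 0.17), close to the all-gene median, and the sign turned under quantile normalization (-0.0006) and without Scr replicate 3 (-0.010). The siKlf4-treated SMCs lay within the range of the PDGFR-β+ libraries.

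The Sprouty genes, which encode inhibitors of receptor tyrosine kinase signalling, rose in both cell types with the exception of Spry2 in SMCs. Spry1 measured 5.61, 6.16 and 7.52 TPM under Scr against 11.3, 13.2 and 12.4 TPM under siKlf4 in SMCs, and 15.9, 13.2 and 12.9 TPM and 31.8, 30.1 and 28.8 TPM in PDGFR-β+ cells. That is 1.92-fold and 2.16-fold in the means, or log2 fold changes of 0.85 (SE 0.13) and 1.06 (SE 0.10). No library of one group reached the other.

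Spry4 had close to the same change in both cell types. In SMCs it went from 3.86, 5.28 and 5.44 TPM to 9.34, 11.0 and 9.54 TPM, and in PDGFR-β+ cells from 7.01, 7.86 and 7.27 TPM to 14.4, 15.6 and 13.5 TPM. The ratios of the means were 2.05 and 1.96 and the log2 fold changes 0.91 (SE 0.14) and 0.88 (SE 0.098), again with no overlap. Spry2, the most abundant of the 10 genes in every group, behaved otherwise. It measured 144, 166 and 178 TPM under Scr against 167, 183 and 182 TPM under siKlf4 in SMCs, groups that overlapped, the log2 fold change being 0.13 (SE 0.092). In PDGFR-β+ cells it measured 96.2, 82.2 and 88.3 TPM and 130, 120 and 126 TPM, a 1.41-fold rise without overlap and a log2 fold change of 0.49 (SE 0.079).

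Spred2, whose product holds back the RAS to RAF step, was the only one of the 10 genes to fall past the threshold with all libraries in the fit. Its levels in PDGFR-β+ cells were 75.5, 86.1 and 70.2 TPM under Scr against 36.9, 37.6 and 35.3 TPM under siKlf4, which left 47.3% of the Scr mean and came to -1.05 (SE 0.090) on the log2 scale. In SMCs it measured 51.3, 52.2 and 50.2 TPM under Scr against 59.6, 57.6 and 52.4 TPM under siKlf4. The SMC groups did not overlap, although Scr replicate 2 at 52.2 TPM was close to siKlf4 replicate 3 at 52.4 TPM, and the log2 fold change of 0.14 (SE 0.074) was not past the threshold. Counted by overlap alone, 9 of the 10 genes had all siKlf4 libraries above all Scr libraries in SMCs, against 25.6% of the genes tested. In PDGFR-β+ cells 7 of the 10 did so, against 33.9%, and 1 had all siKlf4 libraries below, against 19.8%.

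**Figure D3:**
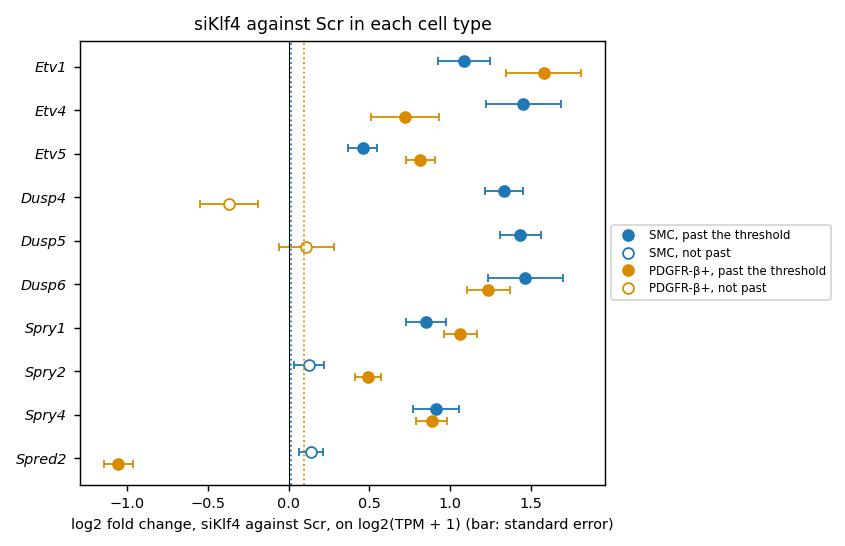
Log2 fold change with siKlf4 on log2(TPM + 1) (x axis) for each of the 10 genes in SMCs (blue) and PDGFR-β+ cells (orange), with bars for the standard error, filled points for changes past the threshold and dotted lines at the median of all genes tested. The cell types lie closest for Spry4, at 0.91 and 0.88, and farthest apart for Dusp4, at 1.33 and -0.37.

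Whether the PEA3 factors moved with the feedback genes therefore read differently in the 2 cell types. In SMCs Etv1, Etv4 and Etv5 rose together with 5 of the 7 feedback genes, those other than Spry2 and Spred2. In PDGFR-β+ cells the same PEA3 factors rose together with 4 of the 7, namely Dusp6, Spry1, Spry2 and Spry4, while Dusp4 and Dusp5 did not pass the threshold and Spred2 fell. The rise of Etv4 there was lost under 7 of 14 alternatives, and the study describes it as only a trend. The difference between the cell types in the effect of siKlf4 was read from the interaction term when all 12 libraries were fitted at once. Of the 10 genes, 3 were past its threshold as more positive in SMCs, against 14.5% of the 13032 genes tested, and 2 as less positive in SMCs, against 18.5%. The 3 were Dusp4, with a difference in log2 fold change of 1.70 (SE 0.23), Dusp5, with 1.32 (SE 0.23), and Spred2, with 1.19 (SE 0.11). The 2 were Spry2 and Etv5, with -0.36 (SE 0.12) each. These 2 calls rested on most of the libraries: both were lost without Scr replicate 2 or Scr replicate 3 of SMCs, any of the 3 siKlf4 libraries of SMCs, Scr replicate 3 of PDGFR-β+ cells or any of the 3 siKlf4 libraries of PDGFR-β+ cells, with values between -0.29 and -0.39, Etv5 also without Scr replicate 1 (-0.35) and Spry2 also without Scr replicate 2 (-0.31) of PDGFR-β+ cells.

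For Etv1 the difference was -0.49 (SE 0.31) and for Etv4 0.73 (SE 0.34), neither past the threshold, although that of Etv4 was 0.94 and past it without the unnumbered siKlf4 library of SMCs. Dusp6, Spry1 and Spry4 had differences of 0.23 (SE 0.29), -0.21 (SE 0.16) and 0.026 (SE 0.17). Those values do not show that the changes were equal, only that the spread of the libraries did not separate them.

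The same libraries tended to be high or low across the 10 genes. In SMCs the unnumbered Scr library was the lowest of its group for 8 of the 10 genes and Scr replicate 3 the highest for 8, and among siKlf4 libraries replicate 2 was the highest for 8. In PDGFR-β+ cells replicate 2 was the highest for 7 of the 10 with Scr and for 7 with siKlf4, and Scr replicate 3 was the lowest for 7. The 10 genes in a library are thus not separate measurements of the pathway. Such ranks were not counted over all genes, so a shift of the whole library cannot be told apart from a shift of these genes. With the 2 unnumbered SMC libraries left out, 8 of the 10 genes were again past the threshold in SMCs, and the log2 fold changes of Etv1, Etv4 and Etv5 were 0.99, 1.57 and 0.37.

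The genes closest to each PEA3 factor over the 12 libraries were found by the root-mean-square difference of log2(TPM + 1), each gene taken relative to the Scr mean of its cell type, among 13031 other genes with at least 1 TPM in both cell types. For Etv1 they were Vav3 (0.22), Slfn9 (0.23) and Gm16464 (0.26). The nearest genes to Etv4 were Plk2 (0.21), Plin2 (0.22) and Nes (0.24), and to Etv5 they were Galnt12 (0.078), Mok (0.091) and Szrd1 (0.094). Among the feedback genes, Dusp6 was nearest to Etv4, at rank 17 of 13031 (0.30), before Dusp5 at rank 40 (0.36) and Spry4 at rank 46 (0.36). Spry1 was the nearest feedback gene to Etv1, at rank 67 (0.41), with Spry4 at rank 88 and Dusp6 at rank 90. For Etv5 the nearest was Spry4, at rank 784 (0.25), and Spred2 was far from all 3, at rank 12285 for Etv1, 11384 for Etv4 and 12242 for Etv5. The phosphatases were also far from Etv5 by this measure, with Dusp6 at rank 8446, Dusp5 at 9249 and Dusp4 at 11018. The measure weighs the size of a change, so a gene that rises much more than Etv5 is far from it even where both rise. Dusp6 rose in SMCs and PDGFR-β+ cells, with log2 fold changes of 1.46 and 1.23, and so did Etv5, with 0.46 and 0.82. Etv1 and Etv4 themselves were at ranks 8077 and 8031 for Etv5, whereas Etv5 was at rank 271 for Etv1 and 450 for Etv4. Dusp4 was at rank 7915 for Etv1 and 615 for Etv4. All libraries of a group share cells and treatment, and each gene was set relative to its Scr mean. These ranks thus mostly restate the changes with siKlf4 in SMCs and in PDGFR-β+ cells, from which the genes of this part were chosen. They do not describe 12 separate conditions.

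The other genes of the pathway, 80 genes in 5 lists, moved in both directions. In SMCs 71 of the 80 were tested, of which 25 rose and 4 fell, and in PDGFR-β+ cells 70 were tested, of which 25 rose and 13 fell. Of all genes tested, 15.6% rose and 12.9% fell in SMCs, and 25.3% rose and 15.3% fell in PDGFR-β+ cells. The counts of each list below are to be read beside these shares. The SMC total of 29 genes past the threshold dropped to 17 without Scr replicate 2, 18 without siKlf4 replicate 2 and 15 without siKlf4 replicate 3. Among 18 other genes known to respond to or restrain ERK signalling, 16 were tested in each cell type: 11 rose and 0 fell in SMCs, and 6 rose and 3 fell in PDGFR-β+ cells. Their median log2 fold changes were 0.52 and 0.39. The SMC count of rises was 6 without any one of the same 3 libraries and 6 with no filter on low values, and with the unnumbered libraries left out it was 12 with 1 fall. Epha2, Epha4, Errfi1, Fosl1, Egr1 and Hbegf were past the threshold in SMCs under all 17 alternatives, whereas the SMC rises of Lif and Plaur were lost without any one of those 3 libraries, those of Ccnd1 and Spred1 also without the unnumbered siKlf4 library, Spred1 also without Scr replicate 3, and that of Phlda1 without any SMC library but the unnumbered siKlf4 one.

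The 6 that rose in PDGFR-β+ cells, Phlda1, Epha2, Epha4, Spred1, Errfi1 and Lif, rose in SMCs too, and several of them encode restraints on receptor signalling or receptors themselves. Epha4, an ephrin receptor gene, averaged 8.32 ± 0.21 TPM with Scr and 20.6 ± 0.82 TPM with siKlf4 in SMCs (log2 fold change 1.21, limma adjusted p = 0.000672), and 14.2 ± 1.17 TPM and 41.7 ± 6.63 TPM in PDGFR-β+ cells (1.48, adjusted p = 0.000129). Epha2 went from 13.2 to 25.8 TPM and from 39.7 to 86.3 TPM (log2 fold changes 0.92 and 1.13). Lif, which encodes a cytokine, measured 1.66, 3.75 and 5.04 TPM under Scr against 7.06, 19.6 and 15.5 TPM under siKlf4 in SMCs, the largest log2 fold change of the list there (1.72, adjusted p = 0.0216), and 0.82 in PDGFR-β+ cells. Spred1, a relative of Spred2, rose from 49.0 to 71.0 TPM in PDGFR-β+ cells (0.53, adjusted p = 0.00353), opposite to Spred2 in the same libraries, and from 51.7 to 64.6 TPM in SMCs (0.32, adjusted p = 0.0296).

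The 3 that fell in PDGFR-β+ cells, Ccnd1, Plaur and Egr1, rose in SMCs, and were looked at together after their values were seen. Ccnd1, the gene of the G1-phase cyclin D1, measured 561, 566 and 548 TPM under Scr against 134, 180 and 164 TPM under siKlf4 in PDGFR-β+ cells (log2 fold change -1.81, limma adjusted p = 2.88e-05). The SMC libraries held 256, 314 and 332 TPM and 380, 418 and 387 TPM (0.40, adjusted p = 0.0286). Cyclin D1 transcripts were thus higher in PDGFR-β+ cells than in SMCs with Scr and lower with siKlf4. Plaur, the urokinase receptor gene, went from 56.3 ± 6.07 to 27.9 ± 2.45 TPM in PDGFR-β+ cells and from 19.9 ± 5.68 to 35.7 ± 4.81 TPM in SMCs (log2 fold changes -0.98 and 0.84). Egr1, an immediate early gene, went from 29.0 ± 1.16 to 16.7 ± 2.05 TPM and from 16.6 ± 3.58 to 32.4 ± 4.21 TPM (-0.77 and 0.94). The interaction term gave differences of 2.21 (SE 0.16) for Ccnd1, 1.83 (SE 0.24) for Plaur and 1.71 (SE 0.21) for Egr1 (limma adjusted p = 4.74e-06, 0.000216 and 0.000133). Fosl1 and Hbegf rose in SMCs (0.93 and 1.31) with values of -0.0064 and 0.34 in PDGFR-β+ cells that were not past the threshold, and their differences of 0.93 and 0.98 were past it (limma adjusted p = 0.0258 and 0.0116), that of Fosl1 not without the unnumbered Scr library or siKlf4 replicate 2 or 3 of SMCs, or siKlf4 replicate 1 or 3 of PDGFR-β+ cells. Fos and Myc, also early ERK targets, did not pass the threshold in either cell type (-0.52 and -0.12 for Fos, 0.24 and 0.45 for Myc).

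**Figure D4:**
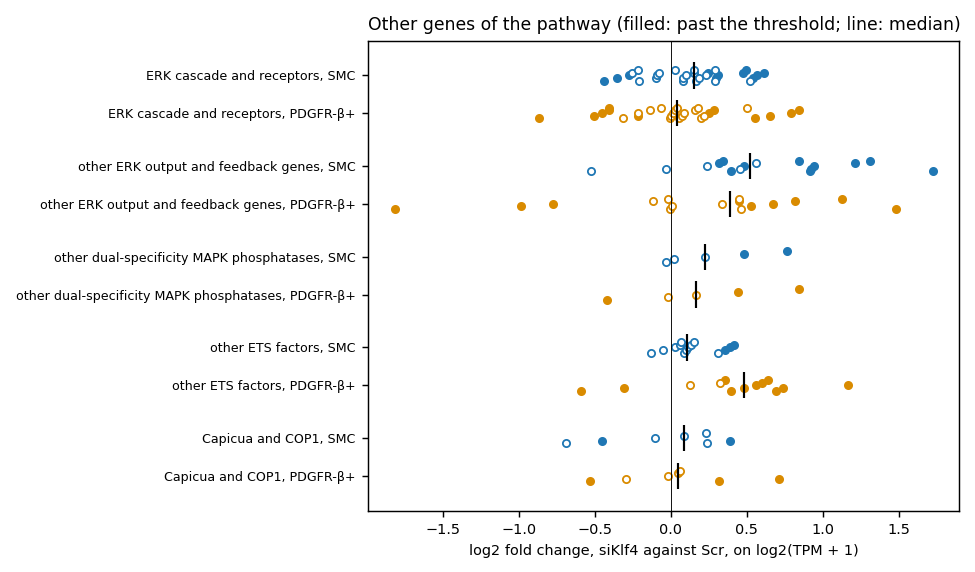
Log2 fold change with siKlf4 on log2(TPM + 1) (x axis) for the tested genes of 5 lists in SMCs (blue) and PDGFR-β+ cells (orange), with filled points for changes past the threshold and a black line at each median. Among the other ERK output and feedback genes, 11 rose and 0 fell in SMCs, whereas 6 rose and 3 fell in PDGFR-β+ cells. Of all genes tested, 15.6% rose and 12.9% fell in SMCs, and 25.3% rose and 15.3% fell in PDGFR-β+ cells.

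The cascade itself, 29 genes from receptors to ERK and its RSK substrates, was tested in full in both cell types. In SMCs 8 rose and 3 fell, with a median log2 fold change of 0.16, and in PDGFR-β+ cells 6 rose and 6 fell, with a median of 0.039. Of all genes tested, 15.6% rose and 12.9% fell in SMCs, and 25.3% rose and 15.3% fell in PDGFR-β+ cells. The PDGFR-β+ counts and the SMC falls were not far from these shares. The SMC counts moved with single libraries, to 5 rises without the unnumbered siKlf4 library, to 1 fall without the unnumbered Scr library, Scr replicate 2 or siKlf4 replicate 2, and to 5 rises and 0 falls without siKlf4 replicate 3. Egfr, the EGF receptor gene, fell in SMCs from 160 ± 20.5 to 117 ± 6.34 TPM (log2 fold change -0.44, limma adjusted p = 0.0181) and rose in PDGFR-β+ cells from 55.1 ± 10.2 to 98.5 ± 7.68 TPM (0.84, adjusted p = 0.00286). The adaptor gene Shc1 did the opposite, with a rise from 244 to 299 TPM in SMCs (0.30, adjusted p = 0.0108) and a fall from 183 TPM to 54.6% of that level in PDGFR-β+ cells (-0.87, adjusted p = 7.37e-05). The interaction term was -1.28 (SE 0.19) for Egfr and 1.16 (SE 0.078) for Shc1 (adjusted p = 0.000376 and 3.35e-06). The fall of Egfr in SMCs was not past the threshold without siKlf4 replicate 2 or siKlf4 replicate 3 (-0.51 to -0.34 over the 17 alternatives), while its difference between the cell types was past it under all 22. Rasa1, which encodes a RAS GTPase-activating protein and so a negative regulator, rose in both, from 66.3 to 102 TPM and from 101 to 159 TPM (0.62 and 0.65). Other large changes were the rise of Map2k1, the gene of MEK1, in SMCs (0.57), the fall of the scaffold gene Ksr1 there (-0.35, lost without the unnumbered Scr library, Scr replicate 2 or siKlf4 replicate 2 or 3), the rise of the FGF receptor gene Fgfr2 in PDGFR-β+ cells (0.79) and the fall of Braf there (-0.51).

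Of the 7 other dual-specificity MAPK phosphatase genes 5 were tested, of which 2 rose in SMCs, Dusp8 (0.77, adjusted p = 0.0369) and Dusp16 (0.48, adjusted p = 0.0118), and 2 rose and 1 fell in PDGFR-β+ cells, Dusp16 (0.84, adjusted p = 0.000859), Dusp10 (0.44, adjusted p = 0.013) and Dusp1 (-0.42, adjusted p = 0.0115), by limma. Dusp8 was not past the threshold without the unnumbered Scr library, Scr replicate 2 or siKlf4 replicate 2 or 3 of SMCs, Dusp10 was not past it without siKlf4 replicate 2 of PDGFR-β+ cells, and Dusp16 in SMCs passed under every alternative but the replicate block, where neither Dusp8 nor Dusp16 did. The median log2 fold changes of this list were 0.23 and 0.17. Of 18 other ETS factor genes, 14 were tested in SMCs, with 3 rises (Ets1, Ets2 and Elf4) and a median of 0.11, and 13 in PDGFR-β+ cells, with 9 rises, 2 falls and a median of 0.48. Beside both these lists, 15.6% of all genes tested rose and 12.9% fell in SMCs, and 25.3% rose and 15.3% fell in PDGFR-β+ cells. The 3 rises in SMCs came down to 1, Elf4, without any one SMC library other than the unnumbered Scr library, and to 1 with no filter on low values. Ets1 rose in both (0.42 and 1.17), with PDGFR-β+ libraries at 30.2, 33.3 and 13.1 TPM under Scr against 45.9, 80.5 and 43.9 TPM under siKlf4, a wide spread in which the call was lost without Scr replicate 3 or any one siKlf4 library. Elf4 rose in SMCs (0.39), Fli1 rose in PDGFR-β+ cells from 4.81 to 8.71 TPM (0.74), and Elk3 and Elk1, ETS factors that act with serum response factor, fell there (-0.59 and -0.31), Elk1 not past the threshold without Scr replicate 1 or siKlf4 replicate 3.

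Among the regulators of PEA3 factors, 7 of 8 listed symbols were found, the ubiquitin ligase COP1 under its older symbol Rfwd2. Capicua is encoded by Cic, which measured 135, 120 and 137 TPM under Scr against 125, 118 and 121 TPM under siKlf4 in SMCs, not past the threshold, and 110, 113 and 107 TPM and 140, 136 and 135 TPM in PDGFR-β+ cells, a small rise (log2 fold change 0.32, limma adjusted p = 0.00545). Its partner Atxn1 fell in PDGFR-β+ cells (-0.53, adjusted p = 0.0025). Rfwd2, whose product marks PEA3 proteins for degradation, rose there from 102 ± 6.73 to 167 ± 8.05 TPM (0.71, adjusted p = 0.000391). In SMCs Trib2 rose (0.39, adjusted p = 0.0114) and Trib1, which encodes another adaptor of COP1, fell (-0.45, adjusted p = 0.0101). The medians of this list were 0.085 in SMCs and 0.051 in PDGFR-β+ cells. These are transcript levels, and neither ERK phosphorylation nor PEA3 protein was measured in these data.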

How the data were processed

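Bulk RNA was sequenced from 12 libraries, 3 in each of 4 groups. Per the labels and the study's methods, the authors aligned reads to mm10 with HISAT2, estimated abundance with StringTie and ballgown on a GENCODE annotation, and deposited TPM values for each library, the cell types in separate files. Their own tests ran DESeq2 on counts that are not analysed here. TPM fixes the total of a library and keeps no depth, so no counting interval can be given and precision rests on 3 libraries per group. A pair of SMC columns, 1 from each treatment, has no replicate number, and these served as members of their groups only.

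TPM was analysed as log2(TPM + 1), keeping genes whose mean over the 6 libraries of the cell type reached 1 TPM. Linear models were fitted in limma (version 3.58.1, R version 4.3.3) with eBayes moderation along a trend, and two-sided p-values were adjusted by Benjamini-Hochberg over all genes kept, with a threshold of 0.05. The difference between cell types was the interaction term over the 12 libraries, for genes that reached 1 TPM in both. The procedure was tested on simulated data with 200 planted changes of 1 log2 unit and independent noise in each library. It recovered 154 of them in SMCs, 165 in PDGFR-β+ cells and 151 for the interaction term. It also called 7, 10 and 11 of the unchanged genes. Libraries that deviate together, as the SMC libraries of like number did, were not simulated. Nor were smaller changes, changes in the lowest genes, or data in which as many genes change as were called here. A log2 fold change on this scale understates the change of low genes. An exact permutation test of 3 libraries against 3 cannot give a two-sided p under 0.1, so the limma calls rest on a variance shared across genes.

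The 10 genes, the pathway lists and the markers were chosen with earlier results of these data known. Beside Klf4 and the 10, the text names for each list and cell type up to 2 rises and up to 2 falls past the threshold, by size and without overlap of the groups, and the 3 nearest genes to each PEA3 factor. Phlda1, Spred1, Errfi1, Egr1, Fosl1, Fos, Myc, Ets2 and the markers were named after their values were seen. Promoter windows came from RefSeq (GRCm38.p6). Alternatives were a pseudocount of 0.1, no filter or a minimum of 5 TPM, scaling by median ratios, quantile normalization, eBayes with no trend, 1 fit over all libraries, a replicate block, the same with the unnumbered libraries as a pair (added after seeing the data), the numbered SMC libraries only, a term for the unnumbered SMC libraries, and leaving out each library in turn.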

Additional observations from a re-analysis of the deposited data

Results flagged for a closer look

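For 5 of the 10 genes the change with siKlf4 was not the same in SMCs and PDGFR-β+ cells, by the interaction term over all 12 libraries. The difference in log2 fold change, SMCs minus PDGFR-β+ cells, was 1.70 for Dusp4, 1.32 for Dusp5 and 1.19 for Spred2, and these calls held under every alternative run. For Etv5 and for Spry2 it was -0.36, and these calls were lost under most alternatives. The members were chosen from the same contrast, so these values are a description.

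The interaction term was also past the threshold for 5 of the 70 other pathway genes tested that rose in one cell type and fell in the other: Ccnd1 with 2.21, Plaur with 1.83, Egr1 with 1.71, Shc1 with 1.16 and Egfr with -1.28. These 5 calls on the interaction term held under all 22 alternatives. The calls within SMCs were less stable. There the rise of Ccnd1 held under 12 of 17 alternatives, that of Plaur under 13 and the fall of Egfr under 15. The SMC rises of Egr1 and Shc1 held under all 17. In all, 16 of the 70 were more positive in SMCs and 12 less positive, where 14.5% and 18.5% of all 13032 genes tested were.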

How the results depend on the processing

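Of the 10 genes, 7 or 8 were past the threshold in each cell type under every alternative, where 8 had been reported in each. The number that differed between the cell types was 5 as reported, and 3 with no filter on low values, under median-ratio scaling and with eBayes without a trend, and 3 to 5 when single libraries were left out. The count of 29 other pathway genes past the threshold in SMCs was 15 to 26 when single libraries were left out. Values that changed sign were those of Dusp5 in PDGFR-β+ cells, -0.0006 under quantile normalization and -0.0104 without Scr replicate 3 in a range of -0.0104 to 0.2829 without single libraries, and the difference between cell types for Spry4, -0.063 with the numbered SMC libraries only, with or without the replicate block, and -0.1033 to 0.0997 without single libraries (-0.0409, -0.0222 and -0.0148 among them). None of these was past the threshold, and the cause was not tested. The rise of Etv4 in PDGFR-β+ cells was lost under 7 of 14 alternatives, the difference for Etv5 under 16 of 22 and that for Spry2 under 13 of 22. Median-ratio scaling turned the split of all calls on the interaction term from 1886 more positive and 2411 less positive in SMCs to 2510 and 1910.

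Same-numbered libraries did not deviate together in PDGFR-β+ cells (r = 0.073, -0.016 and 0.0043 over genes). In SMCs the 2 numbered pairs gave r = 0.19 and 0.20 and the unnumbered Scr and siKlf4 libraries 0.36, while libraries of unlike number gave -0.22 to 0.050, so each SMC library correlated best with the one of like number, a hint from the data and not from the labels. The replicate block over numbered libraries left 7 of the 10 genes past the threshold in SMCs, where Etv5 (0.37) was lost, 8 in PDGFR-β+ cells, and 4 for the difference between the cell types. With the replicate block and the unnumbered libraries taken as a pair of their own, chosen after seeing the data, these were 8 in SMCs and 4 for the difference, where Etv5 was lost, and 36 other pathway genes were past the threshold in SMCs. The depth that each library reached is unknown, and low genes such as Etv1 and Spry4 depend most on the pseudocount.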
